A study of Mus musculus with 18 samples.

Results

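Imprinted genes are transcribed mainly from the allele of a single parent. The 40 genes described here were taken from a list of mouse imprinted genes that lie outside the *Snrpn* region, and the list used no measured value. Of these 40 genes, 39 were among the 20878 genes quantified, and *Kcnk9* was not. RNA was measured in 18 tumors, each from a different mouse, grown from K7M2 cells, a mouse osteosarcoma line of Balb/c origin. The cells carried either a control shRNA (ATRX CT) or an shRNA against *Atrx* (ATRX KD), and were grafted into female mice aged 6 to 8 weeks. Balb/c hosts are syngeneic with the cells, whereas NSG hosts (NOD background, *Prkdc* scid and *Il2rg* mutant) lack T, B, and NK cells. There were 4 ATRX CT tumors (mice 41, 43, 44, and 45) and 4 ATRX KD tumors (mice 56, 58, 59, and 60) in Balb/c hosts. In NSG hosts, there were 5 ATRX CT tumors (mice 1 to 5) and 5 ATRX KD tumors (mice 26 to 30). All tumors came from a single parental line, into which the study brought the *Atrx* shRNA by lentivirus. No repeat of this step is described, so the mice repeat the graft and not the making of the cells. Effects of the knock-down and of other differences between the ATRX KD and CT cells cannot be told apart. Whole cages received cells of the same kind, and the labels give no cage, so that effects of cage and knock-down cannot be told apart.

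In each imprinted domain, DNA methylation laid down in a germ line marks an imprinting control region, and the mark is kept by factors such as ZFP57 and TRIM28. Paternally expressed genes often promote fetal growth (*Igf2*, *Mest*, *Peg3*) and maternally expressed genes often restrain it (*H19*, *Igf2r*, *Cdkn1c*, *Grb10*). Long noncoding RNAs such as *Airn* and *Kcnq1ot1* silence neighbouring genes on the allele that transcribes them. ATRX is a chromatin remodeler that places a histone variant in silent chromatin and has been mapped to imprinted regions. The values here are the total RNA of each gene, so parental alleles were not separated.

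Levels are given as FPKM, which divides the fragments of a gene by its transcript length and by the depth of the library and can be compared between genes. Of the 39 genes, *Gnas* alone had a mean of at least 100 FPKM over the 18 tumors. A mean of 10 to 100 FPKM was found for 8 genes (*Commd1*, *Blcap*, *Impact*, *Copg2*, *Sgce*, *Trappc9*, *Slc38a4*, and *Igf2r*), and of 1 to 10 FPKM for 10 genes (*Mest*, *Airn*, *Inpp5f*, *Tspan32*, *Kcnq1ot1*, *Peg13*, *H19*, *Grb10*, *Peg10*, and *Ascl2*). Another 11 genes lay between 0.1 and 1 FPKM (*Zrsr1*, *Rian*, *Ppp1r9a*, *Slc22a18*, *Nnat*, *Peg3*, *Cdkn1c*, *Meg3*, *Igf2*, *Asb4*, and *Cobl*). The last 9 were under 0.1 FPKM (*Plagl1*, *Rasgrf1*, *Dlk1*, *Mirg*, *Nespas*, *Phlda2*, *Nap1l5*, *Zim1*, and *Usp29*) and were left out of the limma fit over all tumors. The median of the mean levels was 0.917 FPKM for the 39 genes against 3.46 FPKM for all genes, and 76.9% of the 39 genes had a mean of at least 0.1 FPKM against 70.9% of all genes. The libraries held an estimated 14650000 to 25000000 fragments. At that depth, a floor of 3 fragments was passed in all 18 tumors by 26 genes and in no tumor by 3 (*Phlda2*, *Zim1*, and *Nap1l5*). For these 3 genes, expression was not detectable at this depth.

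**Figure D1:**
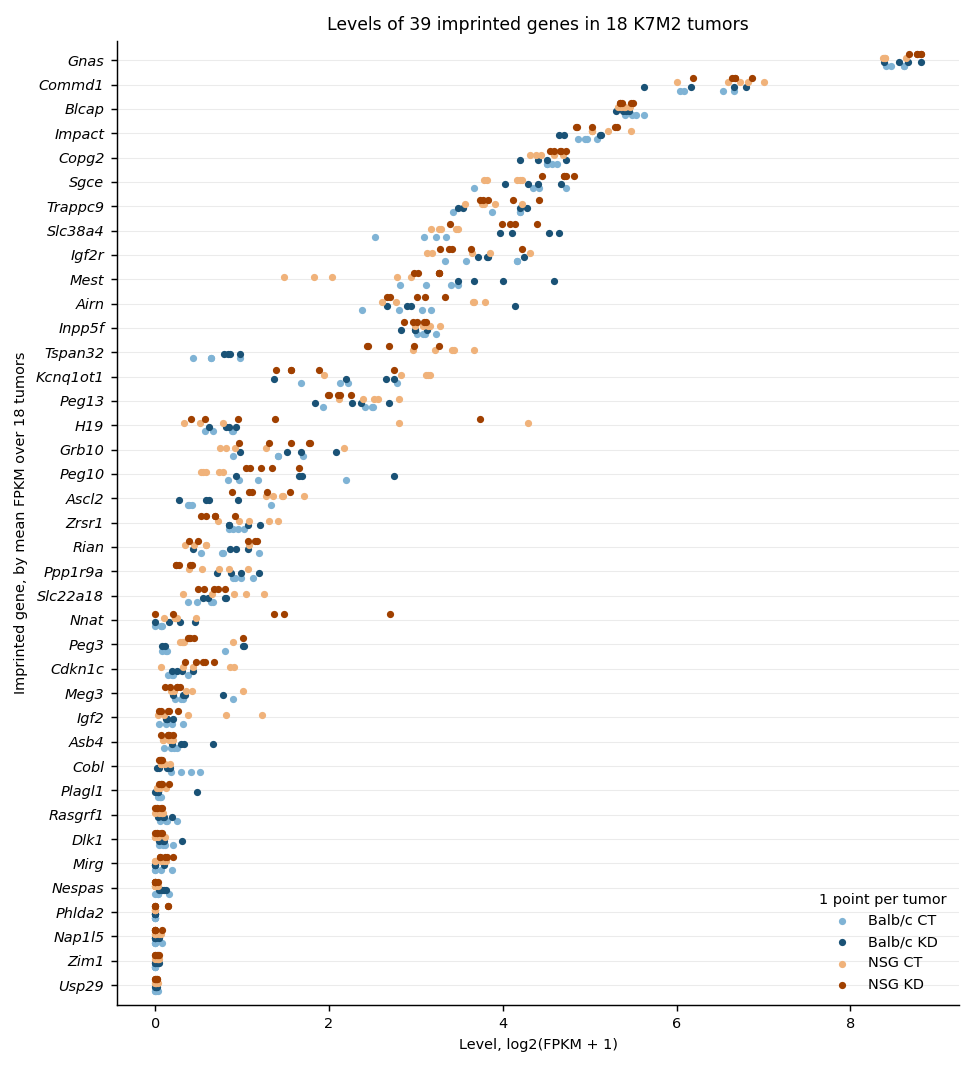
Level of the 39 imprinted genes, as log2(FPKM + 1) on the horizontal axis, with a point for each of the 18 tumors coloured by host and shRNA. Genes are ordered by mean FPKM, from *Usp29* at the bottom to *Gnas* at the top, and *Tspan32* is the gene whose Balb/c and NSG tumors stand clearly apart.

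*Atrx*, the target of the shRNA, was measured at 13.4, 26.02, 10.3, and 20.7 FPKM in Balb/c ATRX CT tumors and at 21.5, 7.88, 9.11, and 17.3 FPKM in ATRX KD tumors, in the order of mouse numbers used throughout. In NSG hosts, it was at 16.2, 11.6, 24.4, 15.1, and 20.5 FPKM in ATRX CT tumors and at 8.42, 16.4, 8.59, 8.88, and 8.59 FPKM in ATRX KD tumors. The groups overlapped in both hosts, and neither difference passed the test (log2 fold change −0.34, standard error 0.36, adjusted p = 0.999 in Balb/c and log2 fold change −0.74, standard error 0.22, adjusted p = 0.061 in NSG, limma). In exact permutation tests, the difference gave p = 0.486 in Balb/c and p = 0.0317 in NSG hosts, not adjusted. The *Atrx* RNA therefore did not check the shRNA labels of single tumors. In the K7M2 cells before grafting, the study reported loss of the ATRX protein with the shRNA by western blot. Osteoblast markers gave a summed level of 822 to 1573 FPKM over all tumors, although *Bglap*, a late osteoblast gene, was listed at 0 in every Balb/c ATRX CT tumor and *Ibsp*, another, in every ATRX KD tumor. Of the 10 osteoblast markers, 4 had a mean under 0.1 FPKM in Balb/c ATRX CT, Balb/c ATRX KD, and NSG ATRX KD tumors. In NSG ATRX CT tumors, 3 did. T cell markers did not overlap between hosts (mean log2(FPKM + 1) of 1.93 to 2.68 in Balb/c and 0.13 to 0.40 in NSG tumors). Adipocyte markers were 0.69 higher in Balb/c ATRX KD than CT tumors and 0.70 higher in NSG ATRX KD than CT tumors on the same log2 scale, with overlap of the groups. Of the 10 adipocyte markers, 10 were higher in Balb/c and 9 in NSG ATRX KD tumors, with summed levels of 88.3 to 110.2 FPKM in Balb/c CT, 155 to 272 FPKM in Balb/c KD, 89.4 to 100.9 FPKM in NSG CT, and 63.8 to 374 FPKM in NSG KD tumors. Endothelial markers were 0.38 and 0.56 higher, and in NSG ATRX KD tumors fibroblast markers were 0.32 higher and macrophage markers 0.46 lower. In tumors of mixed cells, fewer cells of a type and less RNA per cell cannot be told apart.

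The first comparison asked which imprinted genes differed between ATRX KD and CT tumors of Balb/c hosts. None of the 30 tested genes passed the test in Balb/c hosts. *Slc38a4*, a sodium-coupled amino acid transporter, and *Mest*, an enzyme-like protein of the endoplasmic reticulum, were higher in every ATRX KD tumor than in every CT tumor. *Cobl*, an actin nucleator, was lower in every ATRX KD tumor. Calls required an adjusted p under 0.05 together with a 2-fold difference (limma on log2(FPKM + 1), adjusted over all genes tested), and genes under 0.05 at any fold are said to pass the test. By the first rule, 0 of the 30 genes were called, beside 1 of 14701 genes tested (0.0068%). At an unadjusted p under 0.05 there were 3 of the 30 genes, beside 609 of all genes (4.14%), with 2 higher (all genes 1.72%) and 1 lower (all genes 2.42%). These were the same 3 genes whose groups did not overlap, which held for 467 of all genes (3.18%, with 1.25% higher and 1.93% lower). *Cobl*, the lower gene, passed the filter only through its CT tumors, so that its part of both counts is not a result. The median log2 difference was 0.05 over the 30 genes and −0.00321 over all genes.

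The promoters of *Slc38a4* and *Mest* are shown because these 2 genes passed the test over both hosts, as described further on. They are RefSeq windows of build GRCm38.p6 (mm10), from 250 bases before to 50 bases after a transcript start, 5′ to 3′ on the strand of the gene. Capitals mark the hexamer TGCCGC or its reverse complement GCGGCA, the core of the sequence bound by ZFP57 when methylated. *Slc38a4* (minus strand of chromosome 15, annotated from 96994823 to 97055956, 16 exons) is shown at its most upstream start, chr15:97055907-97056206. *Mest* (plus strand of chromosome 6, annotated from 30733506 to 30748466) is shown at its upstream start, chr6:30733256-30733555, and at an internal start, chr6:30737800-30738099.
Slc38a4: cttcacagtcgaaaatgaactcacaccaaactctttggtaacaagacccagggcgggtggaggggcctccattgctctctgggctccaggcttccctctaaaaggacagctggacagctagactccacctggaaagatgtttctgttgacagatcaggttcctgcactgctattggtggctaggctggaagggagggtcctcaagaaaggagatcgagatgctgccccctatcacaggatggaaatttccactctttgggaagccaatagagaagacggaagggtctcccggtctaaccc
Mest, upstream start: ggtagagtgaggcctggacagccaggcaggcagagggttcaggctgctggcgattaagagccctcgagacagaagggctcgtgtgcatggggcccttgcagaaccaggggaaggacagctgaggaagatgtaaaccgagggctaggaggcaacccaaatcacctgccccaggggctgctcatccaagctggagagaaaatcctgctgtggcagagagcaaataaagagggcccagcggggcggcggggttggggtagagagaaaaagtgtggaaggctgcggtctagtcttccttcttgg
Mest, internal start: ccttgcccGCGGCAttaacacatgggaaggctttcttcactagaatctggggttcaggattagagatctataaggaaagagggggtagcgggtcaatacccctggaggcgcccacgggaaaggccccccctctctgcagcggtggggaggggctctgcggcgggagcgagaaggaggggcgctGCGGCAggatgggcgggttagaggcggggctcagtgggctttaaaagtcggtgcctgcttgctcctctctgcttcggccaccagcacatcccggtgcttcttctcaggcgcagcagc
The window of the internal *Mest* start held 2 of these hexamers and 17 CpG dinucleotides, whereas that of the upstream start held 0 and 8, and that of *Slc38a4* held 0 and 5. Of all windows, 11.6% held the hexamer on either strand, and of the 47 windows of imprinted genes 23.4% did. Counted by gene, 31 of the 39 genes had a window, and 10 of these 31 (32.3%) held the hexamer in at least 1 window, against 13.1% of all genes with a window. The median number of CpG dinucleotides was 15 in windows of imprinted genes and 7 in all windows. A match of these letters is not a bound site, and methylation was not measured. *Mest* also overlaps *Copg2* on the opposite strand over 913 nt of exon, and as the strand setting of the counting was not given, reads of both genes cannot be told apart there. *Copg2*, a subunit of the coat of transport vesicles, differed by −0.10 in Balb/c and 0.15 in NSG hosts on the log2 scale (adjusted p = 0.999 and 0.296, limma).

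The 4 Balb/c ATRX CT tumors had *Slc38a4* at 4.78, 9.16, 7.54, and 8.39 FPKM, and the 4 ATRX KD tumors had 14.7, 24.05, 22.04, and 16.2 FPKM. The lowest ATRX KD tumor was thus above the highest CT tumor, with means of 7.47 ± 1.91 and 19.3 ± 4.49 FPKM (SD, n = 4 each). The difference did not pass the test (log2 fold change 1.26, standard error 0.22, adjusted p = 0.295, limma), and the exact permutation test gave p = 0.0286, the smallest that 4 against 4 tumors allow. In a fit of all 4 groups with a common estimate of the spread, the same difference had an adjusted p of 0.0202.

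*Mest* stood at 7.65, 10.2, 6.03, and 9.54 FPKM in Balb/c ATRX CT tumors and at 23.1, 15, 11.8, and 10.2 FPKM in ATRX KD tumors. The highest CT tumor (mouse 43) and the lowest KD tumor (mouse 60) nearly touched, and the difference did not pass the test (log2 fold change 0.74, standard error 0.25, adjusted p = 0.995, limma). The highest *Mest* values came from the tumors of mice 56 and 58, which also had the highest adipocyte marker means among Balb/c tumors (2.71 and 2.72, against 1.41 to 1.87 in the others). Without both tumors the log2 difference of *Mest* was 0.38, and with the adipocyte mean as a covariate it was 0.17, whereas that of *Slc38a4* was 1.27 and 1.18. Neither gene passed the test in these fits (adjusted p = 0.99996 without both tumors and 0.99975 with the covariate for each gene, limma). These alternatives were chosen after the data were seen.

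*Cobl* was measured at 0.425, 0.324, 0.135, and 0.228 FPKM in Balb/c ATRX CT tumors and at 0.125, 0.09498, 0.0171, and 0.03299 FPKM in ATRX KD tumors. Every ATRX KD tumor was lower, with 1 of them under the floor of 3 fragments, and the difference did not pass the test (log2 fold change −0.26, standard error 0.09, adjusted p = 0.999, limma). *Cobl* entered this fit through its CT tumors alone, since its mean in ATRX KD tumors was under the filter of 0.1 FPKM. In NSG hosts it was under the filter, at 0.0434, 0.0503, 0.1198, 0.0822, and 0.0474 FPKM in CT tumors and 0.0464, 0.0367, 0.0287, 0.0454, and 0.0563 FPKM in KD tumors, and these overlapped.

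In NSG hosts, 4 imprinted genes rose in ATRX KD tumors, and none passed the test as lower in the main fit, that is, with no alternative setting. They were *Mest*, *Slc38a4*, and the neighbouring pair *Sgce*, which encodes epsilon-sarcoglycan, and *Peg10*, a gene derived from a retrotransposon and needed in the placenta. All 4 are expressed from the paternal allele in most tissues. Of the 29 genes tested, 0 were called at 2-fold, beside 68 of 14654 genes (0.464%), and 4 passed the adjusted p alone, beside 994 genes (6.78%). By direction, 4 of the 29 genes were higher, beside 547 of all genes (3.73%), and 0 were lower, beside 447 genes (3.05%). The 4 genes were among 13 tested paternally expressed genes, of which 6 had a positive and 7 a negative difference (median −0.09 on the log2 scale). *Igf2*, among the 7, passed the filter only through its CT tumors, so that its part of this count is not a result. Of 13 tested maternally expressed genes, 0 passed, with 5 positive and 8 negative differences (median −0.04). The median log2 difference was −0.02 over the 29 genes and −0.00141 over all genes. The groups did not overlap for 4 of the 29 genes (*Sgce*, *Peg10*, *Mest*, and *Gnas*, all higher), beside 1099 of all genes (7.5%) and 639 higher ones (4.36%). At an unadjusted p under 0.05 there were 10 of the 29 genes, 5 in each direction, beside 3853 of all genes (26.3%). The 5 lower genes were *Kcnq1ot1*, *Peg13*, and *Zrsr1*, listed as paternally expressed, and *Ppp1r9a* and *Tspan32*, listed as maternally expressed. Of these 5 genes, only *Tspan32* and *Ppp1r9a* were followed singly through the alternative settings. Both passed the adjusted p as lower with library weights (0.00871 and 0.00257) and with the length trend removed (0.0473 and 0.0365). They also passed in 1 fit of all 4 groups (0.0455 and 0.0482). Whether *Kcnq1ot1*, *Peg13*, and *Zrsr1* passed in those settings was not examined gene by gene, so no contrast by parent can be drawn. The allele-specific roles are background, and the lists by parent were not tested as sets.

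*Sgce* was at 13.1, 17.6, 17.3, 12.8, and 16.9 FPKM in NSG ATRX CT tumors and at 20.8, 25.03, 27.1, 24.96, and 25.5 FPKM in ATRX KD tumors. Every KD tumor exceeded every CT tumor (log2 fold change 0.64, standard error 0.12, adjusted p = 0.0148, limma). Its Balb/c tumors overlapped widely, with 25.5, 19.3, 20.3, and 11.7 FPKM in CT and 18.5, 20.2, 24.4, and 15.2 FPKM in KD tumors (log2 fold change 0.05, standard error 0.23, adjusted p = 0.999).

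*Peg10* starts 101 bases from *Sgce* on chromosome 6 of mm10, and the genes are transcribed in opposite directions (*Sgce* from 4674350 to 4747204 on the minus strand, *Peg10* from 4747306 to 4760517 on the plus strand). In NSG hosts, *Peg10* was at 0.444, 0.494, 0.667, 0.466, and 0.714 FPKM in ATRX CT tumors and at 1.54, 1.33, 2.15, 1.06, and 1.13 FPKM in ATRX KD tumors. The lowest KD tumor was above the highest CT tumor (log2 fold change 0.63, standard error 0.12, adjusted p = 0.01499, limma). In Balb/c hosts, *Peg10* was at 3.58, 1.27, 0.955, and 0.791 FPKM in CT and 5.73, 2.16, 2.21, and 0.902 FPKM in KD tumors, which overlapped. The tumor of mouse 41 was high among the CT tumors and that of mouse 56 among the KD tumors, and the difference did not pass the test (log2 fold change 0.46, standard error 0.40, adjusted p = 0.999). It was −0.17 with the adipocyte marker mean as a covariate.

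*Slc38a4* was measured at 8.59, 10.1, 10.02, 8.004, and 8.77 FPKM in NSG ATRX CT tumors and at 14.9, 9.49, 15.95, 19.96, and 16.7 FPKM in ATRX KD tumors. The KD tumor of mouse 27 lay within the range of the CT tumors and the other 4 lay above it (log2 fold change 0.67, standard error 0.16, adjusted p = 0.0367, limma). This tumor also had the highest *Atrx* level of the NSG ATRX KD tumors. Its library was the only NSG ATRX KD library whose log2 values rose with transcript length (0.125 per doubling). *Atrx* was at 16.4 to 26.02 FPKM in libraries with slopes of 0.102 to 0.213 (mice 43, 45, 56, 60, 3, and 27). In the other libraries it was at 7.88 to 20.5 FPKM. The part of transcript length in the *Atrx* level was not tested. *Mest* was at 5.86, 1.79, 6.703, 2.55, and 3.08 FPKM in CT and 6.86, 7.12, 8.63, 8.59, and 8.603 FPKM in KD tumors, with every KD tumor higher (log2 fold change 0.95, standard error 0.25, adjusted p = 0.0477, limma). The CT tumors of mice 1 and 3 were close to the KD tumors, and those of mice 2, 4, and 5 were clearly below them.

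*Gnas*, which encodes the alpha subunit of the stimulatory G protein and several imprinted transcripts, was at 337, 397, 331, 333, and 336 FPKM in NSG ATRX CT tumors. It was at 436, 407, 433, 449, and 448 FPKM in NSG ATRX KD tumors, all above the CT tumors, without passing the test (log2 fold change 0.33, standard error 0.09, adjusted p = 0.0554, limma). In Balb/c hosts, the CT tumors had 391, 339, 391, and 354 FPKM and the KD tumors 333, 448, 404, and 376 FPKM, and they overlapped. *Kcnq1ot1*, the RNA that silences its domain on the paternal allele, had the most negative log2 difference of the 29 genes in NSG hosts, at −1.01 (standard error 0.29, adjusted p = 0.0583) in limma. It was at 7.98, 2.83, 6.09, 7.67, and 7.82 FPKM in CT and 2.701, 5.71, 1.96, 1.62, and 1.94 FPKM in KD tumors, with overlap at the CT tumor of mouse 2 and the KD tumor of mouse 27. *Kcnq1ot1* was chosen after its values were seen. It lies wholly within *Kcnq1* on the opposite strand in the annotation and shares 121 nt of exon with it. As the strand setting of the counting was not given, reads of *Kcnq1* and *Kcnq1ot1* cannot be told apart there.

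These 4 genes did not pass the test in every fit of the NSG tumors. The KD tumors of mice 28, 29, and 30 had adipocyte marker means of 3.90, 2.86, and 3.00, above the 1.64 to 2.17 of the CT tumors, with *Adipoq* at 18.7, 6.16, and 7.53 FPKM. Those of mice 26 and 27 had means of 1.61 and 1.43, below every CT tumor. Both were above every CT tumor in *Sgce*, *Peg10*, and *Mest*. In *Slc38a4*, the tumor of mouse 26 was above every CT tumor and that of mouse 27 was within their range. The cause of these differences was not tested. With the adipocyte mean as a covariate, 0 of the imprinted genes passed the test, and the log2 differences of *Sgce*, *Peg10*, *Mest*, and *Slc38a4* were 0.56, 0.57, 0.91, and 0.50 (adjusted p = 0.0584, 0.0595, 0.143, and 0.125 in limma). Without mice 28, 29, and 30, which left 2 KD tumors, these differences were 0.54, 0.65, 0.79, and 0.36 (adjusted p = 0.408, 0.176, 0.557, and 0.583). Over the fits that each left out 1 tumor, the adjusted p of *Peg10* was 0.0136 to 0.0459, that of *Sgce* was 0.0105 to 0.0508 (above 0.05 without the KD tumor of mouse 30), that of *Slc38a4* was 0.01297 to 0.106, and that of *Mest* was 0.0137 to 0.123. *Slc38a4* did not pass in the fits without the CT tumor of mouse 1, 4, or 5 or the KD tumor of mouse 28, 29, or 30, and *Mest* did not pass in 8 of the 10 fits, that is, in all but those without the CT tumor of mouse 3 or the KD tumor of mouse 26.

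**Figure D2:**
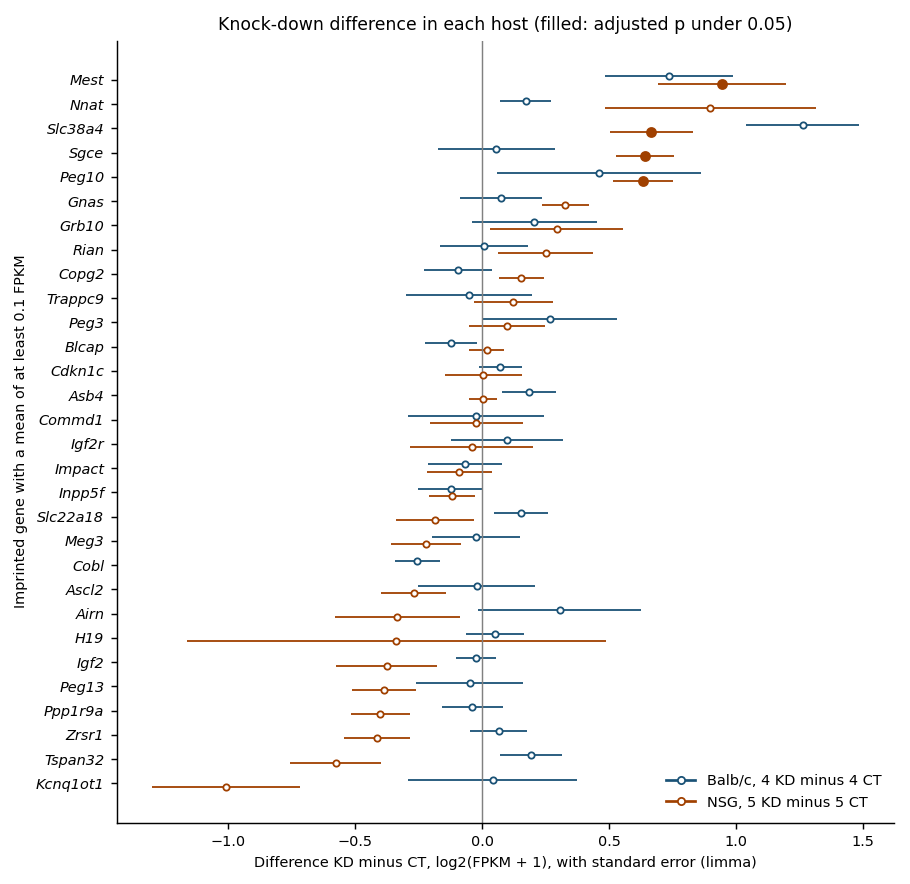
Difference between ATRX KD and ATRX CT tumors for the 30 tested genes, as log2(FPKM + 1) with its standard error from limma, in Balb/c (blue) and NSG (brown) hosts. Filled symbols mark an adjusted p under 0.05, which holds for *Mest*, *Slc38a4*, *Sgce*, and *Peg10* in NSG hosts and for no gene in Balb/c hosts.

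**Figure D3:**
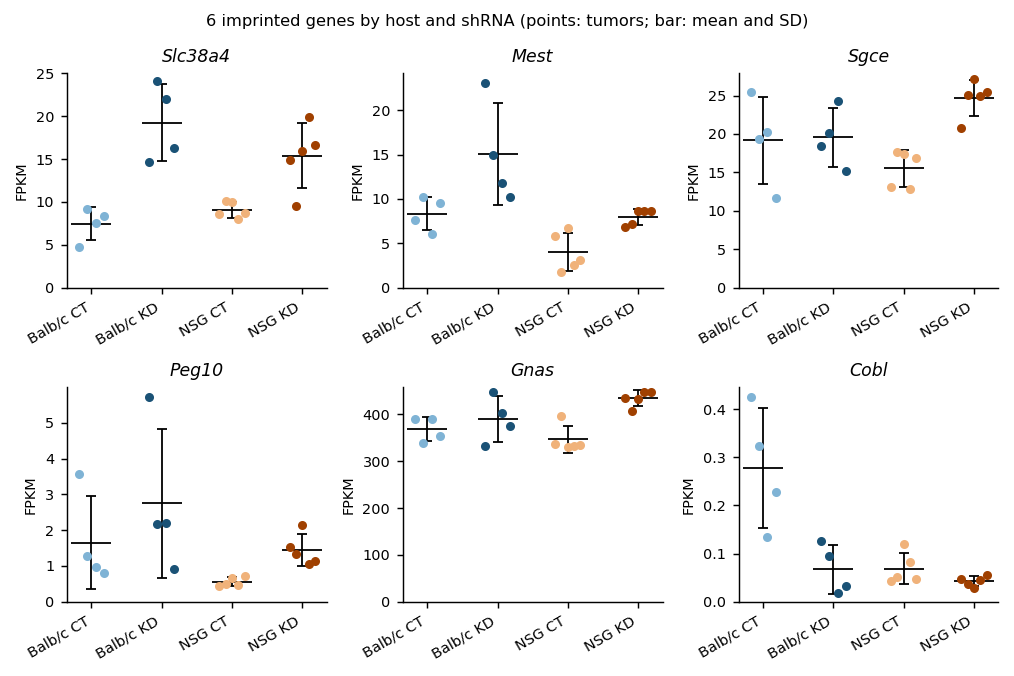
FPKM of the 6 genes whose ATRX CT and KD tumors did not overlap in at least 1 host, with a point per tumor and the mean and SD of each group. *Slc38a4* and *Mest* have higher means in KD tumors in both hosts, whereas *Sgce*, *Peg10*, and *Gnas* separate in NSG hosts and overlap in Balb/c hosts.

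Over both hosts, with host as an additive term, *Slc38a4* and *Mest* were the imprinted genes that rose in ATRX KD tumors. *Slc38a4* had a log2 difference of 0.93 (standard error 0.15, adjusted p = 0.0051) and *Mest* of 0.85 (standard error 0.19, adjusted p = 0.0245) in limma. Of the 30 tested genes, 0 were called at 2-fold, beside 16 of 14803 genes (0.108%), and these 2 passed the adjusted p alone, beside 305 genes (2.06%), of which 188 were higher (1.27%) and 117 lower. At an unadjusted p under 0.05 there were 9 of the 30 genes, beside 2692 of all genes (18.2%). *Cobl*, among these 9, passed the filter only through its Balb/c CT tumors, so that its part of the count is not a result. *Slc38a4* held in each of the 18 fits that left out 1 tumor (adjusted p = 0.00127 to 0.0137). *Mest* had an adjusted p of 0.0136 to 0.0563 in these fits, above 0.05 without the NSG tumors of mice 4, 28, 29, or 30. With the adipocyte mean as a covariate, the log2 differences were 0.78 for *Slc38a4* and 0.72 for *Mest* (adjusted p = 0.0918 and 0.258). Without mice 56, 58, 28, 29, and 30, they were 0.80 and 0.59 (adjusted p = 0.341 and 0.688).

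The effect of the knock-down was not shown to differ between hosts for any imprinted gene in the main fit. In the interaction test, 0 of the 30 genes and 0 of 14803 genes (0%) were called, with 7 of the 30 genes and 1527 of all genes (10.3%) at an unadjusted p under 0.05 in limma. *Cobl*, among these 7, passed the filter only through its Balb/c CT tumors, so that its part of the count is not a result. The smallest p belonged to *Tspan32*, with a difference of −0.77 (standard error 0.24, adjusted p = 0.308) between the NSG and the Balb/c log2 differences. For *Sgce*, this difference was 0.59 (standard error 0.25, adjusted p = 0.436), and for *Slc38a4* it was −0.60 (standard error 0.28, adjusted p = 0.472), the Balb/c difference being the greater.

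The imprinted gene network, a set of growth regulators that are coexpressed in mouse development, contributed 13 genes, of which 11 were tested. Apart from *Mest*, *Sgce*, and *Slc38a4*, none of them passed the test in the main fit of any knock-down comparison. With library weights, *Gnas* and *Grb10* passed as higher in NSG hosts (adjusted p = 0.00178 and 0.00514) and over both hosts (0.0075 and 0.0398) in limma. *Gnas* also passed in NSG hosts with the length trend removed (adjusted p = 0.0228). In the *H19* and *Igf2* domain, *H19*, a maternally expressed noncoding RNA, was at 0.862, 0.84, 0.483, and 0.579 FPKM in Balb/c ATRX CT and 0.531, 0.798, 0.754, and 0.906 FPKM in KD tumors. In NSG hosts, *H19* was at 0.262, 5.996, 18.5, 0.722, and 0.433 FPKM in CT and 0.327, 0.932, 0.486, 1.598, and 12.3 FPKM in KD tumors. The NSG tumors of mice 2, 3, and 30 were thus far above all others, and the knock-down differences did not pass the test (0.05 in Balb/c and −0.34 in NSG on the log2 scale, adjusted p = 0.999 and 0.833). *Igf2*, the fetal growth factor of this domain, was at 0.0923, 0.1399, 0.249, and 0.0313 FPKM in Balb/c CT and 0.151, 0.0945, 0.0936, and 0.0901 FPKM in KD tumors. It was at 0.0208, 0.757, 1.34, 0.298, and 0.0728 FPKM in NSG CT and 0.0448, 0.105, 0.195, 0.0292, and 0.119 FPKM in KD tumors. Its 2 highest tumors were NSG CT tumors 2 and 3, which were also high in *H19*, and no difference passed the test (adjusted p = 0.999 and 0.2497). In NSG hosts, *Igf2* entered the fit through its CT tumors alone, with means of 0.498 FPKM in CT and 0.0986 FPKM in KD tumors.

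*Igf2r*, the receptor that clears IGF2, was at 10.9, 16.9, 9.05, and 16.9 FPKM in Balb/c ATRX CT and 18, 12.2, 13.2, and 13.1 FPKM in KD tumors. In NSG hosts, it was at 11.6, 7.701, 18.9, 8.11, and 13.5 FPKM in CT and 8.65, 17.6, 9.66, 9.45, and 11.4 FPKM in KD tumors. The groups overlapped in both hosts (log2 differences 0.10 and −0.04, adjusted p = 0.999 and 0.938). Its antisense RNA *Airn* ranged from 4.21 to 16.6 FPKM over the 18 tumors and shared no exonic base with it. *Grb10*, an adaptor that dampens insulin and IGF receptor signalling, was at 1.66, 2.25, 0.857, and 1.67 FPKM in Balb/c CT and 3.22, 2.19, 0.968, and 1.86 FPKM in KD tumors. It was at 0.8898, 1.42, 3.49, 0.669, and 0.751 FPKM in NSG CT and 0.949, 1.48, 2.4, 1.95, and 2.43 FPKM in KD tumors, again with overlap (adjusted p = 0.999 and 0.509).

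*Cdkn1c*, an inhibitor of cyclin-dependent kinases, was at 0.148, 0.295, 0.103, and 0.145 FPKM in Balb/c ATRX CT and 0.146, 0.3498, 0.242, and 0.191 FPKM in KD tumors. In NSG hosts, it was at 0.050, 0.8802, 0.817, 0.246, and 0.349 FPKM in CT and 0.387, 0.263, 0.466, 0.601, and 0.488 FPKM in KD tumors. The CT tumors of mice 2 and 3 were the highest of all 18, and no difference passed the test (adjusted p = 0.999 and 0.991). *Meg3*, the noncoding RNA of the maternal *Dlk1* domain, was at 0.173, 0.852, 0.243, and 0.228 FPKM in Balb/c CT and 0.714, 0.264, 0.152, and 0.246 FPKM in KD tumors. It was at 0.158, 0.137, 1.02, 0.342, and 0.274 FPKM in NSG CT and 0.0835, 0.1905, 0.216, 0.1904, and 0.125 FPKM in KD tumors. A single tumor stood above the rest in 3 of the 4 groups (mice 43, 56, and 3), and no difference passed the test (adjusted p = 0.999 and 0.328). *Peg3*, a zinc finger protein, was at 0.0875, 0.10, 0.0508, and 0.748 FPKM in Balb/c CT and 1.02, 0.0799, 0.0511, and 1.01 FPKM in KD tumors. It was at 0.241, 0.253, 0.861, 0.215, and 0.249 FPKM in NSG CT and 0.321, 1.01, 0.358, 0.311, and 0.299 FPKM in KD tumors. Values fell into a high and a low range within each group, and no difference passed the test (adjusted p = 0.999 and 0.725). It shares 865 nt of exon with *Peg3os* on the opposite strand. *Plagl1*, a transcription factor of the network, and *Dlk1*, a transmembrane ligand, were under the filter, with highest values of 0.397 and 0.242 FPKM.

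The host comparison asked which imprinted genes differed between tumors of NSG and Balb/c mice with the same shRNA. *Tspan32*, a tetraspanin of blood cells at the edge of the *Kcnq1* domain on chromosome 7 (143005046 to 143019486, plus strand), was called in both comparisons and was higher in NSG hosts. It was at 0.556, 0.969, 0.348, and 0.562 FPKM in Balb/c ATRX CT and 9.82, 11.7, 8.31, 9.65, and 6.84 FPKM in NSG ATRX CT tumors. In ATRX KD tumors, it was at 0.971, 0.809, 0.79, and 0.729 FPKM in Balb/c and 8.61, 5.45, 4.45, 6.88, and 4.42 FPKM in NSG hosts. Every NSG tumor was thus above every Balb/c tumor (log2 fold change 2.67, standard error 0.16, adjusted p = 4.91e-06 in CT tumors and log2 fold change 1.90, standard error 0.17, adjusted p = 0.000122 in KD tumors, limma). The T cell markers moved the opposite way, and the macrophage markers were 0.22 higher in NSG CT and 0.20 lower in NSG KD tumors than in the Balb/c tumors with the same shRNA, with overlap of the groups. Within NSG hosts, *Tspan32* was lower in ATRX KD tumors without passing the test (log2 fold change −0.58, standard error 0.18, adjusted p = 0.0722, limma).

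In ATRX CT tumors, 1 of the 30 tested genes was called between hosts, beside 212 of 14828 genes (1.43%), and 2 passed the adjusted p alone, beside 472 genes (3.18%). At an unadjusted p under 0.05 there were 7 of the 30 genes, beside 2866 of all genes (19.3%). In ATRX KD tumors, 1 of the 29 tested genes was called, beside 204 of 14669 genes (1.39%), and 2 passed the adjusted p alone, beside 534 genes (3.64%). At an unadjusted p under 0.05 there were 8 of the 29 genes, beside 2411 of all genes (16.4%). The groups did not overlap for 4 of the 30 genes in CT tumors (*Tspan32* and *Nnat* higher in NSG, *Cobl* and *Peg10* lower), beside 7.57% of all genes. *Nnat* and *Cobl* passed the filter only through the group in which they were higher. In Balb/c and NSG CT tumors, their means were 0.0366 and 0.196 FPKM for *Nnat* and 0.278 and 0.0686 FPKM for *Cobl*. Their part of this count, and of the 7 genes at an unadjusted p under 0.05 in CT tumors, is not a result. In KD tumors, the groups did not overlap for 3 of the 29 genes (*Tspan32* higher, *Mest* and *Ppp1r9a* lower), beside 8.13% of all genes. These counts share the tumors of the knock-down comparisons.

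*Ascl2* and *Ppp1r9a* passed the adjusted p in a host comparison and were chosen after their values were seen. *Ascl2*, a transcription factor of the placenta and the intestinal stem cell, was at 1.51, 0.294, 0.342, and 0.311 FPKM in Balb/c ATRX CT and 1.55, 2.27, 1.77, 1.74, and 1.42 FPKM in NSG ATRX CT tumors. The Balb/c tumor of mouse 41 lay within the NSG range, and the other 3 lay well below it (log2 fold change 0.82, standard error 0.20, adjusted p = 0.0496, limma). It did not pass in 8 of the 9 fits that each left out 1 tumor (adjusted p = 0.000916 to 0.164), all but the fit without mouse 41. It also did not pass with library weights (log2 difference 0.40, adjusted p = 0.145), a filter of 1 FPKM (0.0774), no filter (0.0821), or the length trend removed (0.0613). In KD tumors, *Ascl2* was at 0.212, 0.935, 0.497, and 0.533 FPKM in Balb/c and 1.92, 1.11, 1.17, 1.44, and 0.838 FPKM in NSG hosts (log2 fold change 0.57, standard error 0.16, adjusted p = 0.0912). *Ppp1r9a*, an actin-binding scaffold of protein phosphatase 1 whose gene lies beside *Peg10*, was lower in NSG than in Balb/c KD tumors. It was at 1.28, 0.637, 0.827, and 0.986 FPKM in Balb/c KD and 0.337, 0.319, 0.1799, 0.213, and 0.1797 FPKM in NSG KD tumors, with no overlap (log2 fold change −0.63, standard error 0.10, adjusted p = 0.00668, limma). In CT tumors, *Ppp1r9a* was at 0.891, 1.17, 0.8601, and 0.973 FPKM in Balb/c and 0.803, 0.312, 1.09, 0.668, and 0.448 FPKM in NSG hosts, and the groups overlapped (log2 fold change −0.26, standard error 0.13, adjusted p = 0.303).

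**Figure D4:**
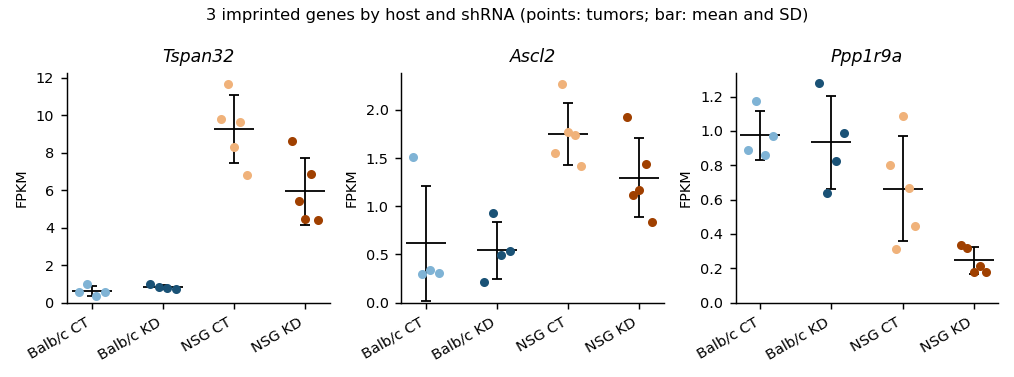
FPKM of *Tspan32*, *Ascl2*, and *Ppp1r9a* in the 4 groups, with a point per tumor and the mean and SD of each group. *Tspan32* is at 0.348 to 0.971 FPKM in Balb/c and 4.42 to 11.7 FPKM in NSG tumors, and *Ppp1r9a* is at or below 0.337 FPKM in NSG ATRX KD tumors.

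The spread between tumors of a group differed widely among the imprinted genes. The within-group SD on the log2 scale was 1.18 for *H19* and 0.60 for *Nnat*, the highest of the 30 genes, and 0.07 for *Blcap*, the lowest. The NSG tumors with *H19* at 18.5, 12.3, and 5.996 FPKM (mice 3, 30, and 2) had skeletal muscle marker means of 3.39, 3.21, and 2.09, with *Acta1*, skeletal actin, at 129, 170.3, and 56.9 FPKM. The tumor of mouse 29 had a muscle mean of 2.22 with *H19* at 1.60 FPKM, and the other 14 tumors had muscle means of 0.17 to 1.47 with *H19* at 0.262 to 0.932 FPKM. *Nnat*, a small membrane protein, was highest in the NSG KD tumors of mice 28, 30, and 29 (5.504, 1.801, and 1.57 FPKM), which also had the highest adipocyte means. The Balb/c KD tumors of mice 56 and 58, with adipocyte means of 2.71 and 2.72, had *Nnat* at 0.214 and 0.372 FPKM. *Nnat* passed the filter in Balb/c hosts through its KD tumors alone, and none of the Balb/c CT tumors was above the floor. *Peg3* was at 0.748 to 1.02 FPKM in 5 tumors (mice 45, 56, 60, 3, and 27) and at 0.0508 to 0.358 FPKM in the other 13. In these 5 libraries the log2 values rose with transcript length, by 0.102 to 0.213 per doubling of the length, as they did by 0.146 in that of mouse 43, where *Peg3* was in the low range. The slopes of the other 12 libraries were −0.149 to 0.000946. *Nnat* and these patterns were chosen after their values were seen, and the part of muscle, fat, and transcript length in them was not tested.

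**Figure D5:**
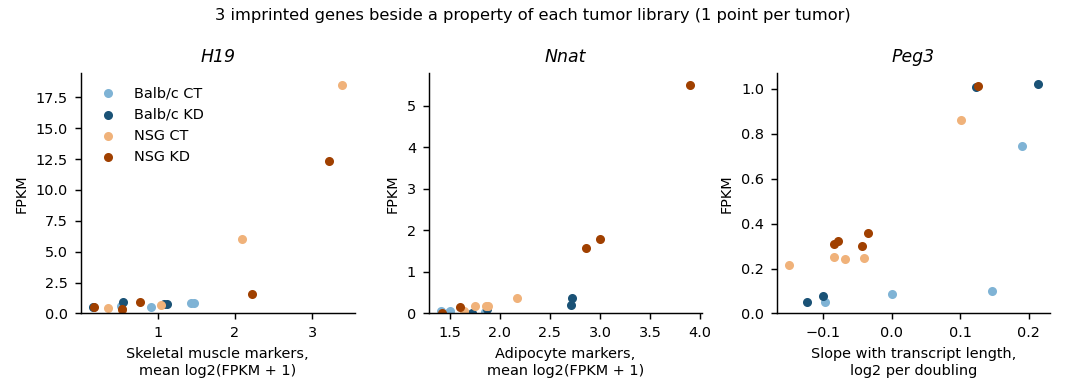
FPKM of *H19* against the skeletal muscle marker mean, of *Nnat* against the adipocyte marker mean, and of *Peg3* against the slope of each library with transcript length, with a point per tumor coloured by group. The tumors with *H19* above 5 FPKM and with *Nnat* above 1 FPKM are NSG tumors, and the 5 tumors with *Peg3* near 1 FPKM come from all 4 groups.

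Neighbouring imprinted genes were compared across the 18 tumors after removal of the group means, for 15 pairs that share a domain. No pair passed a permutation test after adjustment over the 15 pairs. *H19* and *Igf2* had the highest correlation (Pearson r = 0.75, permutation p = 0.0179, adjusted p = 0.0878, Spearman rho = 0.56, permutation p = 0.0735, adjusted p = 0.184), and r was 0.73 without the 2 tumors farthest from the median of the centred *H19* values. *Meg3* and *Rian*, noncoding RNAs of the same domain, gave r = 0.55 (permutation p = 0.0234, adjusted p = 0.0878) and rho = 0.54 (permutation p = 0.0194, adjusted p = 0.0972), and r was 0.22 without the 2 farthest tumors, so that r, as computed here, rested on them (rho was not recomputed). With the length trend removed, r was 0.66 (permutation test, adjusted p = 0.0216). *Cdkn1c* and *Kcnq1ot1*, the RNA that silences it, gave r = −0.57 (permutation p = 0.00696, adjusted p = 0.0878) and rho = −0.60 (permutation p = 0.01001, adjusted p = 0.0841), with r = −0.45 without the 2 farthest tumors. With the length trend removed, r was −0.23 (permutation test, adjusted p = 0.5298). *Peg10* and *Sgce* gave r = 0.49 (permutation p = 0.1498, adjusted p = 0.321) and rho = 0.49 (permutation p = 0.0626, adjusted p = 0.184), with r = 0.53 without the 2 farthest tumors. Pairs of 1 tumor share its library and its mix of cells.

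Factors that set or keep imprints were compared as a list of 28 genes, of which 25 were tested. In NSG hosts, 1 of the 25 passed the adjusted p and rose, beside 3.73% of all genes, and 0 were called at 2-fold, beside 0.464%. A single gene of 25 is near the share over all genes. It was *Uhrf1*, which brings the maintenance methyltransferase to replicated DNA, at 0.65 (standard error 0.16, adjusted p = 0.0368) in limma, followed by *Trim28*, the corepressor recruited by ZFP57, at 0.46 (standard error 0.13, adjusted p = 0.0578). In Balb/c hosts, 0 of the 25 passed, and the smallest p belonged to *Ezh2*, a methyltransferase of histone H3, and *Rad21*, a subunit of cohesin (adjusted p = 0.999 and 0.999). Over both hosts, 0 of the 25 passed, with *Trim28* and *Uhrf1* at the smallest p (0.25 and 0.36 on the log2 scale, adjusted p = 0.205 and 0.2104). Between hosts, 0 passed in CT or in KD tumors, beside 3.18% and 3.64% of all genes. In CT tumors, *Ctcf*, which insulates imprinted domains, and *Uhrf1* had the smallest p (adjusted p = 0.0896 and 0.132). In KD tumors, these were *Dnmt3b*, a de novo methyltransferase, and *Zfp445*, a reader of imprint control regions (adjusted p = 0.116 and 0.312).

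The IGF pathway list held 15 genes, of which 12 were tested. *Igfbp3*, which binds IGFs outside the cell, was called in NSG hosts and rose in ATRX KD tumors, with a log2 difference of 1.20 (standard error 0.24, adjusted p = 0.0193) in limma, and it was the only gene of the list to pass there, beside 6.78% of all genes passing and 0.464% called. Over both hosts, it rose by 0.85 (standard error 0.20, adjusted p = 0.0343), again as 1 of 12, beside 2.06% of all genes. In Balb/c hosts, 0 of 12 passed, with *Igfbp6* and *Igfbp3* at the smallest p (log2 differences 0.64 and 0.41, adjusted p = 0.999 and 0.999). Between hosts, *Igfbp3* was called in CT tumors and was lower in NSG hosts (log2 fold change −1.17, standard error 0.27, adjusted p = 0.0421), and *Igf1* passed the adjusted p in KD tumors and was lower in NSG hosts (log2 fold change −0.75, standard error 0.18, adjusted p = 0.0483).

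A further list of 24 imprinted genes outside the 40 gave 13 tested genes. In NSG hosts, 3 of the 13 passed the adjusted p and rose in ATRX KD tumors, beside 3.73% of all genes, and 1 was called at 2-fold, beside 0.464%. The called gene was *Cpa4*, a carboxypeptidase, at 1.16 (standard error 0.30, adjusted p = 0.0422) in limma, and the others were *Cd81*, a tetraspanin, at 0.38 (standard error 0.10, adjusted p = 0.0424) and *Osbpl5*, a lipid transfer protein, at 0.48 (standard error 0.12, adjusted p = 0.0441). In Balb/c hosts, 0 of the 13 passed, with *Ddc* and *H13* at the smallest p (log2 differences −0.19 and −0.32, adjusted p = 0.999 and 0.999). Over both hosts, *H13*, a signal peptide peptidase, fell (log2 fold change −0.28, standard error 0.07, adjusted p = 0.0346), as 1 of 13, beside 2.06% of all genes. Between hosts, 0 passed in CT tumors, where *Cpa4* and *Dcn* had the smallest p (adjusted p = 0.135 and 0.175), and 0 passed in KD tumors, where *Cd81* and *Osbpl5* did (adjusted p = 0.157 and 0.159). No gene of the 3 lists passed the interaction test.

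The remaining tested genes did not pass the test in the main fit of any knock-down or host comparison. *Blcap* was the steadiest of them, at 38.5 to 48.2 FPKM, with *Commd1* at 48.2 to 128.0 FPKM, *Impact* at 24.1 to 43.5 FPKM, *Trappc9* at 9.73 to 20.3 FPKM, and *Inpp5f* at 6.12 to 8.66 FPKM. *Nnat* lies within *Blcap*, *Zrsr1* within *Commd1*, and *Peg13* within *Trappc9* in the annotation, with no shared exonic base. *Peg13*, a noncoding RNA, was at 2.56 to 5.99 FPKM and *Zrsr1*, a splicing factor, at 0.440 to 1.66 FPKM. In NSG hosts, both had lower means in ATRX KD tumors (−0.39 and −0.42 on the log2 scale, adjusted p = 0.0801 and 0.0718, limma). *Rian* was at 0.268 to 1.29 FPKM, *Slc22a18*, an organic cation transporter, at 0.252 to 1.38 FPKM, and *Asb4*, a ubiquitin ligase subunit, at 0.0488 to 0.585 FPKM.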

How the data were processed

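The 18 K7M2 tumors were grouped, and named by mouse number, from the labels. The authors aligned reads to mm10 with STAR 2.6.0c, dropped duplicates and low-quality reads, and obtained FPKM of RefSeq genes with Cufflinks 2.2.1. The deposited values are log2(FPKM + 1) of 20970 entries, that is, 20878 genes and 92 spike-ins, which were left out here. Base 2 was inferred, because FPKM times transcript length came to 1.06 to 1.09 of the expected total, against 8.09 to 10.8 with the natural log. No scaling between libraries, and no strand setting of the counting, was given in the sources used here. Depth was inferred from the spacing of low FPKM, of which only 35.3% to 44.8% fell within 0.1 of a whole fragment, so that whole reads were not recovered. The floor of 3 fragments covers counting error only.

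limma 3.58.1 in R 4.3.3 (lmFit, eBayes with trend) was run on log2(FPKM + 1), with a pseudocount of 1, on every gene whose mean reached 0.1 FPKM among the tumors fitted, and p-values were adjusted over these by Benjamini-Hochberg. Each host (or, between hosts, each shRNA) was fitted alone, and the interaction over all 4 groups. Fold changes on this scale understate those of low genes. The study's own test needs counts and was not run. Exact two-sided permutation tests of single genes can reach 0.0286 in Balb/c hosts and 0.00794 in the other comparisons, and pairs of genes were tested by 100000 permutations within groups. The limma fit was first tested on simulated data for the knock-down in each host, over both hosts, and for the hosts in ATRX CT tumors. The interaction, the hosts in ATRX KD tumors, the permutation tests, and the other steps were not simulated. p-values measure the spread between mice.

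Genes given in full were those called in a comparison, network genes above the filter, and genes whose ATRX CT and KD tumors did not overlap in a host. Other lists are given by counts, with their called genes or else the 2 smallest p. The members, lists, and tests were chosen with earlier results of these data known. Alternatives were a pseudocount of 0.1, median-ratio scaling, a filter of 1 FPKM or none, no fold threshold, limma's library weights and robust prior, a loess removal of the trend with transcript length, a common fit, and each tumor left out. The adipocyte alternatives were added after seeing the data. Tables and figures were made with Python 3.11.15.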

Additional observations from a re-analysis of the deposited data

Results flagged for a closer look

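In 10 of 120 groups (30 genes in 4 groups), a single tumor lay farther from the others than Dixon's 95% limit for 4 or 5 values, where 6 would be expected by chance. Values are FPKM, tested as log2(FPKM + 1). *Peg3* accounted for 3 of them: 0.748 in Balb/c ATRX CT tumor 45 (others 0.0508 to 0.1), 0.861 in NSG ATRX CT tumor 3 (others 0.215 to 0.253), and 1.01 in NSG ATRX KD tumor 27 (others 0.299 to 0.358). *Meg3* was at 0.852 in Balb/c ATRX CT tumor 43 (others 0.173 to 0.243) and at 1.02 in NSG ATRX CT tumor 3 (others 0.137 to 0.342). In Balb/c hosts, *Igf2* was at 0.151 in ATRX KD tumor 56 (others 0.0901 to 0.0945), *Ascl2* at 1.51 in ATRX CT tumor 41 (others 0.294 to 0.342), and *Peg13* at 2.81 in ATRX CT tumor 44 (others 4.34 to 4.69). In NSG hosts, ATRX CT tumor 2 had *Kcnq1ot1* at 2.83 (others 6.09 to 7.98) and *Gnas* at 397 (others 331 to 337).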

How the results depend on the processing

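No paired analysis was possible because no replicate number is shared between the groups. Of the alternative values of single genes and pairs, 0 reversed a result that passed a test. Numbers of imprinted genes are given first for those called at 2-fold and then, where they moved, for those past the adjusted p alone. The share over all genes was not computed for library weights, the pseudocount of 0.1, the filters, or the common fit. Nor was it computed for the adipocyte alternatives or the fits without 1 tumor. Counts under these settings are therefore not a result about imprinted genes, since all genes may have moved alike. With library weights and a robust prior, there were 1 and 1 in Balb/c hosts, 3 and 16 in NSG hosts, 1 and 9 over both hosts, 2 and 6 for the interaction, 3 and 8 between hosts in ATRX CT tumors, and 4 past the adjusted p alone in ATRX KD tumors. With no fold threshold, 4 were called in NSG hosts, 2 over both hosts, 2 between hosts in CT tumors, and 2 in KD tumors. With a pseudocount of 0.1, 2 were called in NSG hosts, 1 over both hosts, 2 between hosts in CT tumors, and 2 in KD tumors. Past the adjusted p, NSG hosts gave 2 with no filter, 8 with the length trend removed (when 888 of all genes were higher and 927 lower, against 547 and 447), and 0 under either adipocyte alternative, as did the fit over both hosts (0). Between hosts in CT tumors, 1 passed with a filter of 1 FPKM, with no filter, and with the length trend removed. In that last setting, 212 of all genes were higher and 376 lower, against 162 and 310 in the main fit. In 1 fit of all 4 groups, 4 passed between hosts in CT tumors, whereas in KD tumors 1 passed with a filter of 1 FPKM. In 1 fit of all 4 groups, 1 gene (*Slc38a4*) was called and passed in Balb/c hosts, and *Peg10* in NSG hosts had an adjusted p of 0.175. Leaving out 1 tumor gave 1 to 6 genes past the adjusted p and 0 to 1 called in NSG hosts, 1 to 2 and 0 to 1 over both hosts, 1 to 2 and 1 to 2 between hosts in CT tumors, 2 to 3 and 1 in KD tumors, and 0 and 0 in Balb/c hosts and for the interaction. *Mest* in NSG hosts had an adjusted p of 0.0518 with median-ratio scaling and 0.0753 with no filter, and *Slc38a4* 0.0549 with no filter. With the length trend removed, *Meg3* and *Rian* (r = 0.66, adjusted p = 0.0216) and *Mest* and *Copg2* (r = −0.72, adjusted p = 0.0370) passed the permutation test, whereas *Cdkn1c* and *Kcnq1ot1* moved to r = −0.23 (adjusted p = 0.5298). The cause of these changes was not tested.

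The number of tumors limits the tests: with 4 against 4, the smallest exact p is 0.0286. At the estimated depth, genes under 0.1 FPKM rest on a few fragments, and a p that misses the threshold does not show that a gene did not differ. Parental alleles, methylation, and cell composition were not measured.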

Other observations

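The 9 imprinted genes under the filter were near the floor in most tumors. *Plagl1* was at 0.397, 0, 0.0254, and 0.0249 FPKM in Balb/c ATRX KD tumors and at 0.112 FPKM or less in all others. *Dlk1* was listed at 0 in 4 tumors, all in NSG hosts, and passed the floor of 3 fragments in 6 of 8 Balb/c and 3 of 10 NSG tumors. *Nespas*, the antisense RNA of the *Gnas* locus, was at 0.08596, 0.05199, 0.0257, and 0.0744 FPKM in Balb/c and at 0, 0, 0.0217, 0, and 0 FPKM in NSG ATRX KD tumors, without overlap, but passed the floor in 2 of the 18 tumors. *Rasgrf1*, an exchange factor for RAS, passed the floor in 5 tumors, all in Balb/c hosts. In exact permutation tests, not adjusted for the 39 genes, the host difference in ATRX KD tumors gave p = 0.00794 for *Nespas*, the smallest these groups allow, and p = 0.0397 for *Dlk1*, whereas *Plagl1* and *Rasgrf1* stayed above 0.05 in the knock-down and host comparisons. The choice of these 4 was made with their values known.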
